A study of Mus musculus with 8 samples.

Results

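The myeloid microRNAs described here are the 5 mature forms mmu-miR-511-3p, mmu-miR-511-5p, mmu-miR-223-3p, mmu-miR-142a-3p and mmu-miR-142a-5p (the mouse prefix is left out below), chosen by their exact names from the 1881 mouse miRNAs on the array. They come from 3 hairpins and were measured in the skin of 4 NcstnΔKC and 4 normal mouse samples, with 1 array per sample. All animals were male, carried the genotype Ncstn flx/flx; Krt14 CreER+/-, and were sampled at 16 weeks of age, when lesional skin was cut out for RNA according to the protocol. The NcstnΔKC animals were 8 weeks old at their first oral tamoxifen, given as a daily 20 mg/kg for 5 days and repeated every 10 days. The normal animals had received an equal volume of corn oil. Ncstn encodes nicastrin, a subunit of the gamma-secretase protease, and the Krt14 promoter drives the tamoxifen-activated Cre in basal keratinocytes, so the deletion is aimed at the epidermis and not at leukocytes. Tamoxifen exposure and loss of Ncstn coincide and cannot be told apart, and the arrays do not measure Ncstn mRNA. The labels do not say that each sample is a separate mouse, so p-values cover the spread between these samples.

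A mature miRNA pairs through its seed, bases 2 to 8, with messenger RNAs and lowers their translation or stability. The 3 hairpins are known for their leukocyte expression. Mir511 lies in an intron of Mrc1, the gene of the mannose receptor CD206 of tissue macrophages, and in mouse macrophages miR-511-3p is the arm reported as active. miR-223 is most abundant in neutrophils and their precursors and restrains granulocyte activation. miR-142 is made in nearly all blood cell types, from a hairpin whose 2 arms are both used.

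The sequences below identify what the arrays measured and show that the members do not share a seed. They are RefSeq sequences on GRCm38.p6, where 4 of the 5 members were found, and capitals mark the seed.
miR-511-3p: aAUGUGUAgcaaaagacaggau
miR-223-3p: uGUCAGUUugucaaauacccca
miR-142a-3p: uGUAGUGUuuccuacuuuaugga
miR-142a-5p: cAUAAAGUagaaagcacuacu
None of these 4 seeds is also the seed of another of the 1679 mature mouse sequences in the same table. Matches to a seed elsewhere in a sequence were not counted. miR-511-3p lies at chr2:14261051-14261072, miR-223-3p at chrX:96242884-96242905, miR-142a-3p at chr11:87756903-87756925 and miR-142a-5p at chr11:87756867-87756887, all on the plus strand. The Mir511 hairpin lies within the span of the protein-coding gene Mrc1 (chr2:14229414-14332023), and the Mir223 hairpin within that of the long noncoding RNA F630028O10Rik (chrX:96239926-96243642).

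The hairpins of Mir511 and Mir142 are shown because the 2 arms of each were measured separately. Capitals mark the arms, and for the 5′ arm of Mir511 they mark the bases that its longest probe pairs with.
Mir511: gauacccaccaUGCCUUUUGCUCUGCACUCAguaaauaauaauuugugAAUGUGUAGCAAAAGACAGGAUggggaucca
Mir142: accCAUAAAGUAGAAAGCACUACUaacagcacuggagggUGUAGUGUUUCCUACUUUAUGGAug
The Mir511 hairpin covers chr2:14261003-14261081 and the Mir142 hairpin chr11:87756864-87756927. Each member other than miR-511-5p was read by 2 probes that pair with the 3′ end of the miRNA.
The longer probe of each is the reverse complement of bases 5 to 22 of miR-511-3p, 2 to 22 of miR-223-3p, 1 to 23 of miR-142a-3p and 3 to 21 of miR-142a-5p:
miR-511-3p probe: atcctgtcttttgctaca
miR-223-3p probe: tggggtatttgacaaactgac
miR-142a-3p probe: tccataaagtaggaaacactaca
miR-142a-5p probe: agtagtgctttctacttta
No other mature sequence of the table holds any of these targets in full. A further miRNA, miR-142b, is read from the opposite strand of the Mir142 locus; its sequence is complementary to bases 4 to 23 of miR-142a-3p, so it is not the target of the miR-142a-3p probes. miR-142b and miR-223-5p, the other arm of Mir223, were well above background on 0 of the 8 arrays.

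Signals are given as the scaled signal, which is the background-subtracted Cy3 intensity of a miRNA, summed over its probes and divided by the 75th percentile of the 301 probes detected on all 8 arrays; a log2 value of 0 stands for that percentile. Between 198 and 238 miRNAs were detected on the NcstnΔKC arrays and between 235 and 273 on the normal arrays, where detection means at least 1 probe with at least 50% of its spots well above background. The limma fit covered the 222 miRNAs that a whole group (4 arrays) detected, and it included 3 of the 5 members. Of the 222 miRNAs, 42.8% were called: 33 were higher and 62 lower in NcstnΔKC skin at an adjusted p under 0.05 (limma, Benjamini-Hochberg over 222), and the median log2 difference was -0.23. That split depended on the scaling: it was 12 higher and 0 lower with the percentile taken over all probes, 36 and 33 with quantile normalization, 41 and 30 with cyclic loess, 24 and 101 with no scaling and 18 and 91 with spike-in scaling. The median log2 difference ran from -0.54 to 0.64 over these scalings, and the 0.64 came from the percentile over all probes. Each array detected 10.5% to 14.5% of the miRNAs, so that percentile falls among undetected probes and scales by signals at background level. The arrays lay on 1 slide, with the NcstnΔKC samples in one row of it and the normal samples in the other, so the row on the slide cannot be told apart from the group. All 7 epithelial miRNAs listed as markers of skin, among them miR-203-3p and miR-205-5p, were detected on all 8 arrays.

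Among the members, miR-511-3p and miR-142a-3p rose in NcstnΔKC skin, by 5.11-fold and 2.86-fold. miR-223-3p had a fold of 2.21 and did not pass the test. miR-142a-5p, not tested because it was below the detection rule on 1 NcstnΔKC array and on all normal arrays, had measured means 3.10-fold apart, higher in NcstnΔKC skin, and miR-511-5p was not well above background on any array. Thus 2 of the 3 tested members were higher, beside 14.9% of all tested miRNAs (33 of 222), and no tested member was lower, beside 27.9%. The members were chosen with earlier results of these data known, so these counts are not an independent test of the group. In whole skin, more cells of a type and more of a miRNA per cell cannot be told apart.

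**Figure D1:**
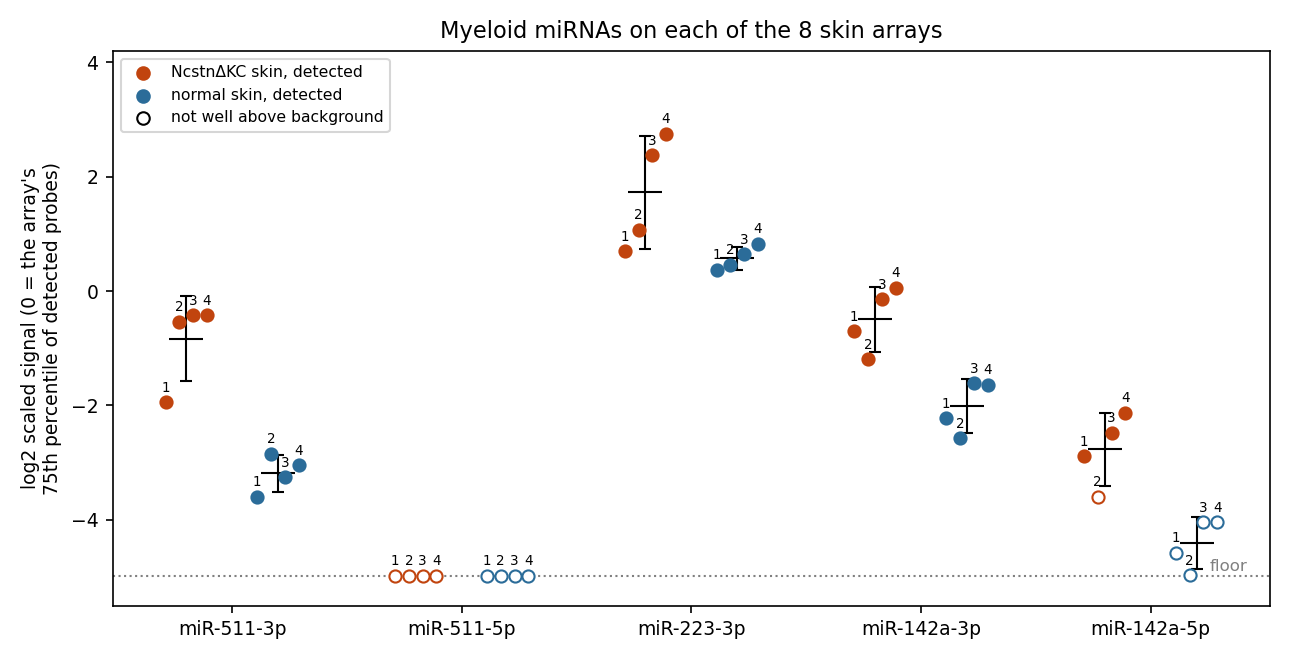
Log2 scaled signal (vertical axis, 0 is the 75th percentile of probes detected on all arrays) of the 5 myeloid miRNAs on each of the 4 NcstnΔKC and 4 normal arrays; points are arrays, numbered by replicate and open where the miRNA was not well above background, bars are the mean ± SD and the dotted line is the floor. miR-511-3p, miR-142a-3p and miR-142a-5p have every NcstnΔKC point above every normal point, miR-223-3p has an NcstnΔKC spread from 0.70 to 2.75 that overlaps the normal one, and miR-511-5p lies on the floor throughout.

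miR-511-3p, the macrophage miRNA of the Mrc1 locus, had the largest difference of the 3 tested members. Its log2 scaled signals were -1.95, -0.54, -0.42 and -0.42 on NcstnΔKC arrays 1 to 4, against -3.59, -2.84, -3.26 and -3.05 on normal arrays 1 to 4. The groups did not overlap, and NcstnΔKC 1 stood below the other 3 NcstnΔKC arrays, which lay close together. The means were -0.83 ± 0.75 in NcstnΔKC skin and -3.18 ± 0.32 in normal skin (SD, n = 4 each), a log2 difference of 2.35 ± 0.36 (SE) with a 95% interval of 1.53 to 3.17 and an adjusted p of 0.00238 (limma). This was the third-highest difference among the 222 tested miRNAs, 2.59 above their median. Groups did not overlap for 36.9% of the 222, with NcstnΔKC above for 13.5%. Without NcstnΔKC 1 the log2 difference was 2.72. Its 2 probes gave log2 differences of 2.46 and 2.29; the first was detected on 4 NcstnΔKC arrays and on 2 normal arrays, the second on all 8. In intensity units before scaling, the summed signal was 301, 636, 791 and 798 on the NcstnΔKC arrays and 106, 169, 129 and 159 on the normal arrays, so the groups were also apart without any scaling. The deposited series matrix, whose log2 values the authors normalized in a way not given in the sources used here, had 6.91, 8.55, 8.57 and 8.55 in NcstnΔKC skin and 4.59, 5.10, 4.99 and 5.37 in normal skin, with the same array low.

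miR-511-5p, the opposite arm of that hairpin, is covered by 4 probes with 7 or 8 spots each per array, and was detected on 0 of the 4 NcstnΔKC and 0 of the 4 normal arrays. Its brightest probe gave intensities of 12.0 to 16.1 in NcstnΔKC skin and 7.11 to 13.0 in normal skin, and the ranges overlapped. Another of its probes gave 5.56 to 8.58 in NcstnΔKC skin and -0.31 to 3.50 in normal skin. The remaining probes overlapped between the groups. They gave -6.17 to -0.48 and -4.84 to -0.25 in NcstnΔKC skin, against -4.17 to 0.29 and -5.52 to 4.67 in normal skin. All 8 summed values were under the floor, so no fold is given. Of the Mir511 hairpin these arrays thus gave a measured difference for the 3′ arm alone.

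miR-142a-3p, the 3′ arm of the pan-leukocyte hairpin, had log2 scaled signals of -0.71, -1.20, -0.14 and 0.055 on NcstnΔKC arrays 1 to 4. On normal arrays 1 to 4 it had -2.22, -2.58, -1.61 and -1.64. The groups did not overlap, and NcstnΔKC 2 and normal 2 were the lowest of their groups. The means were -0.50 ± 0.57 in NcstnΔKC skin and -2.01 ± 0.47 in normal skin (SD, n = 4 each). The log2 difference was 1.52 ± 0.33 (SE), with a 95% interval of 0.76 to 2.27 and an adjusted p of 0.00792 (limma), and it ranked 8 among the 222. Its 2 probes gave 1.51 and 1.53. Before scaling its summed intensities were 712, 403, 963 and 1111 in NcstnΔKC skin and 273, 204, 403 and 422 in normal skin, so that NcstnΔKC 2 fell within the normal range; the groups overlapped without scaling and on the spike-in scale, and were apart in the other 11 of 13 ways of making the values.

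miR-142a-5p, the 5′ arm, was lowest on the same arrays as miR-142a-3p. Its log2 scaled signals were -2.89, -3.59, -2.47 and -2.13 on NcstnΔKC arrays 1 to 4 and -4.58, -4.96, -4.04 and -4.04 on normal arrays 1 to 4. No NcstnΔKC value lay in the normal range on this scale. The groups were apart in 10 of 13 ways of making the values and overlapped without scaling, on the spike-in scale and with the software's totals. It was detected on NcstnΔKC 1, 3 and 4, not on NcstnΔKC 2, and on 0 of the 4 normal arrays, so it was not in the fit. Its means were -2.77 ± 0.63 in NcstnΔKC skin and -4.40 ± 0.45 in normal skin (SD, n = 4 each), a ratio of 3.10, with NcstnΔKC 2 entered at its own undetected signal. Each normal array's own signal was above the lowest detected signal of that array, so taking the higher of the 2 as a limit for normal skin gives the same ratio and no lower bound apart from it. Its 2 probes gave log2 differences of 1.74 and 1.54. Where a wider filter let it into the fit, its log2 difference was 1.63, with an adjusted p of 0.0119 among the 317 miRNAs detected on at least 1 array, 0.00878 among the 264 that the scanner software's own detection call let in, and 0.162 among all 1881. The software's call counted it as detected on 4 NcstnΔKC and 3 normal arrays. Deviations from the group means of the 2 arms of Mir142 had a Pearson r of 0.990 over the 8 arrays, which share hybridisation and scaling.

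miR-223-3p, the neutrophil miRNA, had the widest spread among NcstnΔKC arrays. Its log2 scaled signals were 0.70, 1.07, 2.37 and 2.75 on NcstnΔKC arrays 1 to 4, against 0.37, 0.46, 0.64 and 0.83 on normal arrays 1 to 4. NcstnΔKC 3 and 4 were high, NcstnΔKC 2 was just above all normal arrays, and NcstnΔKC 1 was below normal 4, so the groups overlapped. On the linear scale the scaled signals were 1.62, 2.10, 5.19 and 6.72 in NcstnΔKC skin and 1.30, 1.38, 1.56 and 1.78 in normal skin. The means on the log2 scale were 1.72 ± 0.99 in NcstnΔKC skin and 0.58 ± 0.20 in normal skin (SD, n = 4 each). The difference was 1.15 ± 0.44 (SE), with a 95% interval of 0.14 to 2.15, a raw p of 0.0299 and an adjusted p of 0.0644 (limma), and it ranked 17 by size. Without NcstnΔKC 1 it was 1.49 with an adjusted p of 0.0176, without NcstnΔKC 3 it was 0.93 with 0.163, and without NcstnΔKC 4 it was 0.81 with 0.133 (limma). Its 2 probes gave 1.13 and 1.15. In the deposited matrix it had 9.68, 9.90, 11.4 and 11.7 in NcstnΔKC skin and 9.17, 9.22, 9.48 and 9.63 in normal skin, with no overlap. Its groups were apart in only 3 of 13 ways of making the values, the matrix among them.

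**Figure D2:**
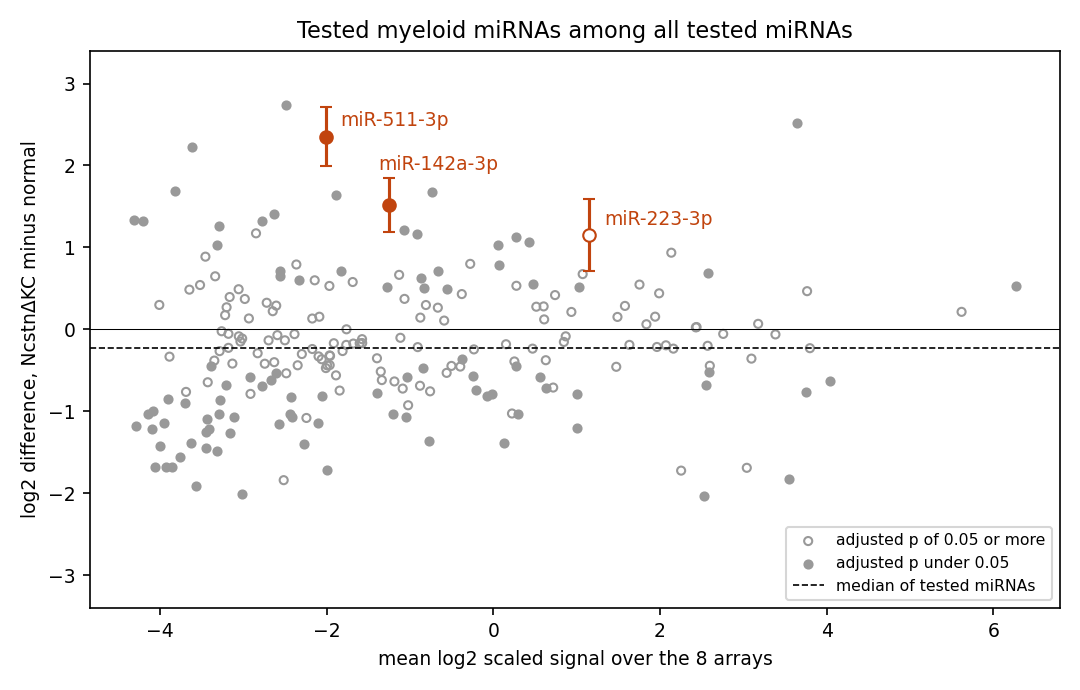
Log2 difference (NcstnΔKC minus normal, vertical axis) against mean log2 scaled signal over the 8 arrays (horizontal axis) for the 222 tested miRNAs, with filled points at an adjusted p under 0.05, the 3 tested myeloid miRNAs in colour with bars of ± SE, and the dashed line at the median of -0.23. miR-511-3p at 2.35 and miR-142a-3p at 1.52 are filled and miR-223-3p at 1.15 is open; signals of different probes are not compared as levels.

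The estimated changes of the 3 tested members differed in size, but no pair passed a test of the difference between its changes after adjustment. The change of miR-511-3p exceeded that of miR-223-3p by 1.20 log2 units. Per array, miR-511-3p minus miR-223-3p, centred on its mean in normal skin, was 1.11, 2.15, 0.96 and 0.59 in NcstnΔKC skin and -0.21, 0.46, -0.14 and -0.11 in normal skin. These values did not overlap, and the exact two-sided permutation test over 70 labelings gave p = 0.0286, the smallest it can give, and 0.0857 adjusted over the 3 pairs. With 3 pairs, 1 pair alone at the smallest p cannot pass after adjustment, so the adjusted result cannot decide whether these changes differ. miR-511-3p exceeded miR-142a-3p by 0.84 in its change (exact permutation p = 0.171, adjusted p = 0.257), and miR-223-3p minus miR-142a-3p was -0.37 (exact permutation p = 0.4, adjusted p = 0.4). Both of these pairs had overlapping groups.

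**Figure D3:**
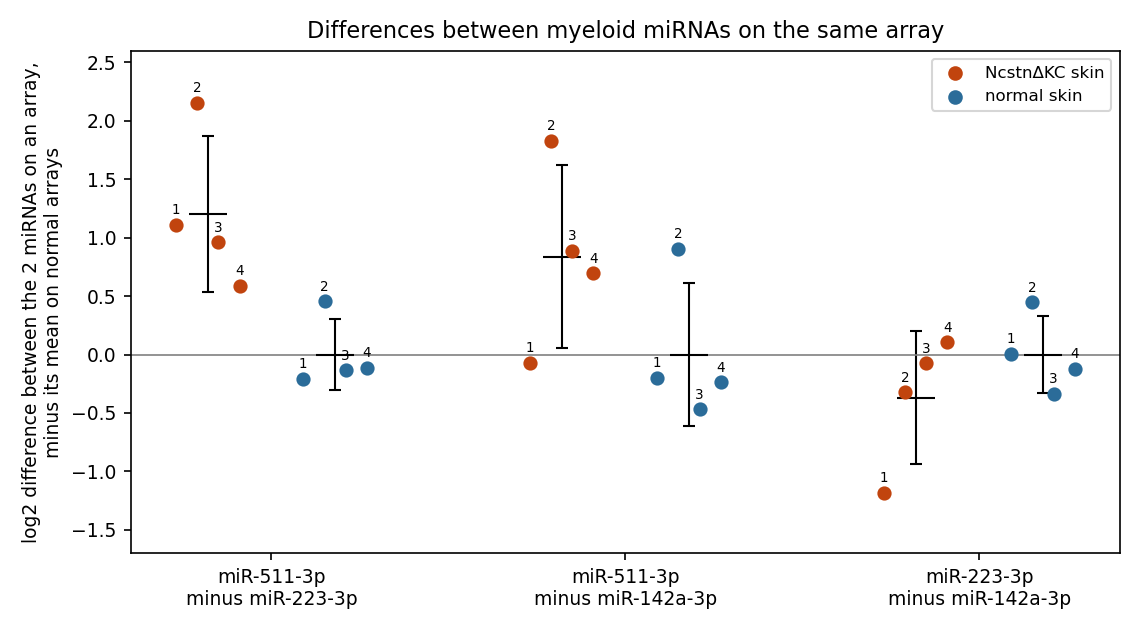
Difference in log2 signal between 2 myeloid miRNAs on the same array, for the 3 pairs of tested members, after subtracting its mean on the normal arrays (vertical axis, log2 units), with the 4 NcstnΔKC and 4 normal arrays as points and bars of mean ± SD. NcstnΔKC points lie above the normal points for miR-511-3p minus miR-223-3p (1.20 higher on average) and overlap them for the other pairs.

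The SD over the 4 NcstnΔKC arrays was 0.99 for miR-223-3p, 0.75 for miR-511-3p and 0.57 for miR-142a-3p, ranks 14, 22 and 39 of 222 from the widest, and the median SD was 0.26. For miR-511-3p that SD rests on NcstnΔKC 1, since the other 3 arrays gave -0.54, -0.42 and -0.42. In normal skin the same miRNAs had SDs of 0.20, 0.32 and 0.47, ranks 153, 98 and 66, with a median of 0.27. Array NcstnΔKC 1 was the lowest of its group for miR-511-3p and miR-223-3p, whereas NcstnΔKC 2 was the lowest for both arms of miR-142a. Deviations from group means over the 8 arrays had a Pearson r of 0.694 between miR-511-3p and miR-223-3p, 0.759 between miR-223-3p and miR-142a-3p and 0.176 between miR-511-3p and miR-142a-3p. For miR-511-3p the largest deviation was that of NcstnΔKC 1, at -1.95 against a group mean of -0.83. Its r values were not computed without that array. Array NcstnΔKC 1 also differed from its group in tissue markers: the summed scaled signal of the 4 striated muscle miRNAs (miR-1a-3p, miR-133a-3p, miR-133b-3p and miR-206-3p) was 38.3 there and 6.41 to 13.1 on the other 3 NcstnΔKC arrays, against 17.5 on normal 1 and 50.6 to 84.1 on the other 3 normal arrays. The summed signal of the listed red blood cell miRNAs was 2.85 on NcstnΔKC 1 and 1.08 to 1.43 on the other 3 NcstnΔKC arrays. For the other listed leukocyte and inflammation miRNAs the sum was 44.8 on NcstnΔKC 1 and 55.8 to 60.1 on the other 3. The part of these differences in the members' values was not tested.

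The miRNAs most like each member over the 8 arrays are given by Pearson r of log2 signals, as a description over points that share the group difference and the scaling. For miR-511-3p they were miR-106b-5p (r = 0.991), miR-93-5p (r = 0.987) and miR-362-3p (r = 0.986), with r of 0.939, 0.926 and 0.910 for deviations from group means. The latter include the large deviation of miR-511-3p on NcstnΔKC 1 and were not computed without it. miR-106b-5p and miR-93-5p come from 1 cluster in an intron of Mcm7. Their log2 differences were 0.71 for miR-106b-5p, 0.62 for miR-93-5p and 1.41 for miR-362-3p, all smaller than the 2.35 of miR-511-3p. For miR-223-3p they were miR-5099 (0.959), miR-7118-5p (0.902) and miR-15b-5p (0.888), with 0.931, 0.937 and 0.805 for deviations. miR-5099 had a log2 difference of 2.74, and miR-7118-5p, at 0.43, did not pass the test (adjusted p = 0.347, limma). For miR-142a-3p they were miR-15b-5p (0.950), miR-677-3p (0.903) and miR-146b-5p (0.888), with 0.813, 0.729 and 0.512 for deviations.

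Other miRNAs known from leukocytes and inflammation did not move as one group. Of 31 listed, 30 were on the array and 16 were tested. Among them 4 were higher, 2 were lower and 10 did not pass, and their median log2 difference was 0.01, beside -0.23 over all 222. Of all 222, 14.9% were higher and 27.9% lower. The 4 that rose were miR-21a-5p, a widely expressed miRNA raised in inflamed tissue (2.51, adjusted p = 0.000477), miR-155-5p, induced in activated macrophages and lymphocytes (1.26, adjusted p = 0.00402), miR-146b-5p (1.64, adjusted p = 0.00402) and miR-125a-5p (0.51, adjusted p = 0.0249), all by limma. miR-146a-5p, whose sequence is close to that of miR-146b-5p, had a log2 difference of -1.08 and did not pass (adjusted p = 0.131, limma). The 2 that were lower were miR-181b-5p and miR-181c-5p, which were detected on all 4 normal arrays and were not well above background on any NcstnΔKC array; both had a difference above 0 with the percentile taken over all probes, a scaling under which the median of all tested miRNAs was 0.64 and not -0.23. miR-155-5p, miR-146b-5p and miR-21a-5p were higher at an adjusted p under 0.05 under all 5 other scalings, and miR-125a-5p was called in 2 of the 5.

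Markers of other blood and vessel cell types are given by their counts and summed signals. Beside these counts, 14.9% of all 222 tested miRNAs were higher and 27.9% lower. Counts near these shares are not read as a result about a cell type. The 4 lymphocyte miRNAs also belong to the leukocyte and inflammation list of the preceding paragraph, so miR-181b-5p is counted in both. A sum adds signals on the linear scale, so the brightest miRNA of a list weighs most in it. Of the 4 lymphocyte miRNAs, all tested, 0 were higher and 1, miR-181b-5p, was lower; miR-150-5p, the mature lymphocyte miRNA, had a log2 difference of 0.89 (adjusted p = 0.0653, limma), and the summed scaled signal was 0.578 to 0.737 in NcstnΔKC skin and 0.604 to 0.760 in normal skin. Of the 5 red blood cell miRNAs listed, 4 were on the array and 2 were tested, miR-144-3p and miR-144-5p were detected on 0 of the 8 arrays, and the sum was 1.08 to 2.85 in NcstnΔKC skin and 0.709 to 1.86 in normal skin. Of the 2 tested, 0 were higher and 1, miR-486a-5p, was lower, with a log2 difference of -1.91 (adjusted p = 0.0229, limma), a call kept in 2 of the 5 other scalings. It was detected on 1 NcstnΔKC array and 4 normal arrays. miR-451a, the erythroid miRNA detected on all 8 arrays, had 0.53 (adjusted p = 0.392, limma). Of the 2 endothelial miRNAs, 1 was tested, miR-126a-3p, at 0.15 (adjusted p = 0.392, limma), with sums of 2.75 to 3.35 in NcstnΔKC skin and 2.38 to 3.08 in normal skin.

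The lists of the skin's structural cells moved beside the members as follows, where 14.9% of all 222 tested miRNAs were higher and 27.9% lower. Of the 7 epithelial miRNAs, 0 were higher and 4 were lower (miR-203-3p, miR-200a-3p, miR-200b-3p and miR-429-3p, all 4 above 0 with the percentile taken over all probes, which adds the same amount to each of their log2 differences), with sums of 22.7 to 30.3 in NcstnΔKC skin and 22.5 to 27.4 in normal skin. Of the 5 mesenchymal miRNAs, 3 were higher (miR-214-3p at 1.21, miR-199a-5p at 1.06 and miR-199a-3p at 0.69) and 1, miR-145a-5p, was lower; of the 5 other scalings, miR-214-3p was called in 5, miR-199a-5p in 4 and miR-199a-3p and miR-145a-5p in 2. miR-145a-5p was detected on 1 NcstnΔKC array and 4 normal arrays, 2 of its values were at the floor, and its groups overlapped. The mesenchymal sums of 9.01 to 14.0 in NcstnΔKC skin and 5.44 to 7.63 in normal skin did not overlap. These sums mostly follow the brightest miRNA. In NcstnΔKC skin that was miR-199a-3p (mean log2 2.92, the next 0.95) for the mesenchymal list. For the epithelial list it was miR-205-5p (mean log2 4.00, the next 2.21), so the lower epithelial miRNAs weigh little in the sum. miR-143-3p, at -0.52, did not pass. Of the 4 striated muscle miRNAs, 0 were higher and 1, miR-1a-3p, was lower at -1.83 (called in 2 of the 5 other scalings), and the median of the 4 was -1.71. The part of these shifts in the members' values was not tested.

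**Figure D4:**
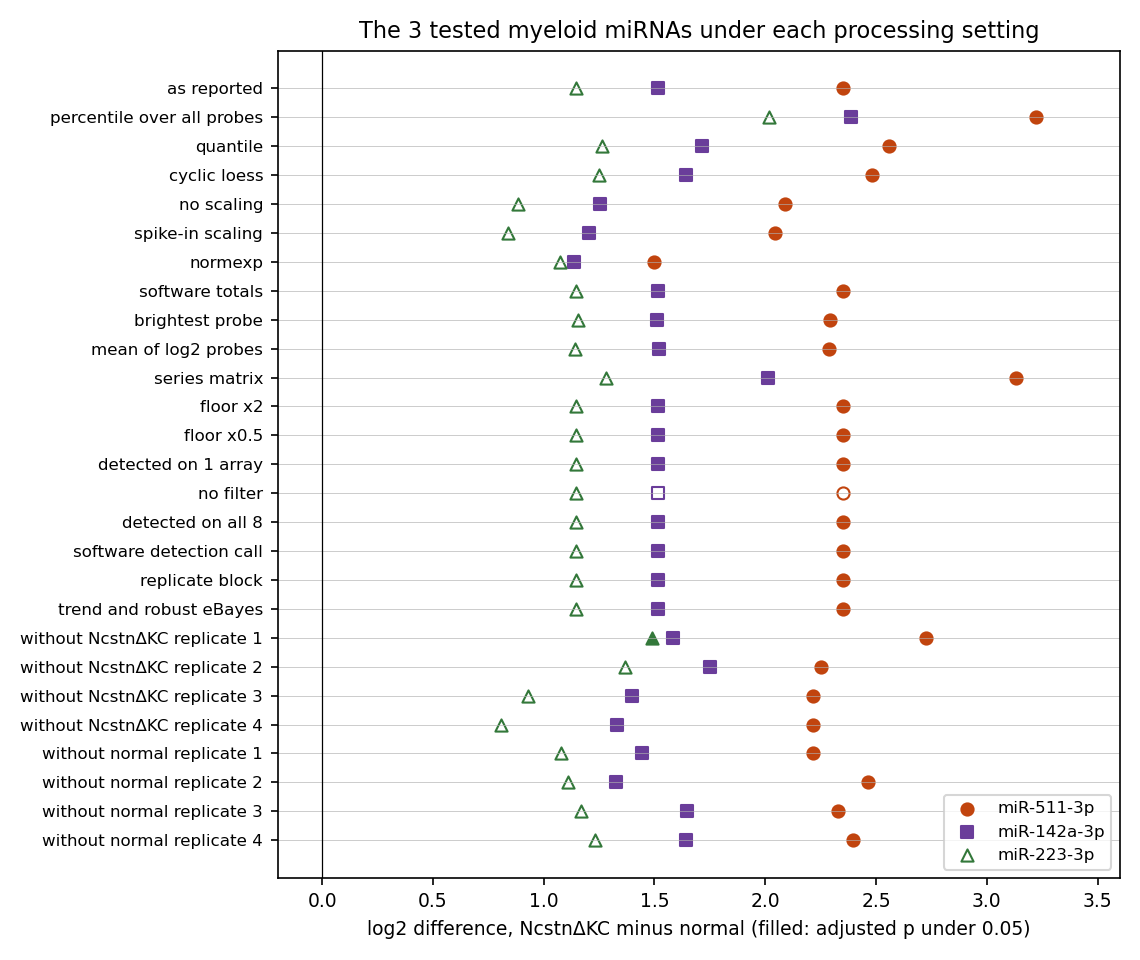
Log2 difference (NcstnΔKC minus normal, horizontal axis) of the 3 tested myeloid miRNAs as reported, under 18 other processing settings and without each of the 8 arrays in turn; filled symbols have an adjusted p under 0.05. All differences are above 0; miR-511-3p and miR-142a-3p are filled in every setting shown other than the fit on all 1881 miRNAs, and miR-223-3p is filled without NcstnΔKC replicate 1.

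The direction held across the scalings for each tested member. Over the 5 other scalings the log2 difference ran from 2.04 to 3.22 for miR-511-3p, 1.21 to 2.39 for miR-142a-3p and 0.84 to 2.02 for miR-223-3p. All upper ends came from the percentile over all probes, which scales by signals at background level. Relative to the median of all tested miRNAs under the same scaling, the ranges became 2.54 to 2.63, 1.70 to 1.79 and 1.31 to 1.38. The percentile over all probes, no scaling and spike-in scaling give each array 1 factor, which cancels in this difference. Their values of 2.59, 1.75 and 1.38 therefore equal those reported by construction. Only quantile normalization and cyclic loess could differ. The adjusted p of miR-223-3p ran from 0.0532 to 0.159 over the same scalings (limma).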

How the data were processed

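Total RNA of 4 NcstnΔKC and 4 normal skin samples was labelled with Cy3 and hybridised to 1-colour miRNA arrays, per the labels' protocols. Per the file headers, Agilent Feature Extraction 10.7.1.1 gave each spot a background-subtracted intensity without normalization between arrays. The deposited series matrix holds log2 values whose normalization and centring are not given in the sources used here; its column medians were 3.24 to 3.25. Outlier spots (2223 to 2940 of 56430) and control spots were left out, no spot was saturated, spots were averaged per probe, and each array was divided by its 75th percentile (922 to 1314 intensity units). Probes were summed per miRNA, and values below 0.0318 were set to that floor before log2. The fit used limma's lmFit and eBayes (version 3.58.1, under R 4.3.3) with Benjamini-Hochberg adjustment over 222 miRNAs and a threshold of 0.05, and pairs of miRNAs were compared by an exact permutation test. The limma procedure was tested on simulated data. Besides the 5 members, the text names the 3 miRNAs most correlated with each tested member and up to 6 of each list with the smallest p; miR-146a-5p was named after its values were seen. The members and lists were chosen with earlier results of these data known. Probe positions in the files mix genome builds, so RefSeq coordinates are given. The number of arrays limits the precision. Alternatives covered scaling, background, probe summary, floor, filter, block and leaving out arrays.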

Additional observations from a re-analysis of the deposited data

Results flagged for a closer look

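miR-511-3p on the 4 NcstnΔKC arrays was marked because NcstnΔKC 1, at a log2 scaled signal of -1.95, lay far below the others at -0.54, -0.42 and -0.42; the gap took up 0.925 of the group's range, above the critical value of Dixon's test for 4 samples. The 4 normal arrays of miR-511-3p minus miR-223-3p were marked because normal 2, at 0.46, lay above the others at -0.21, -0.14 and -0.11, a gap of 0.859 of the range. Chance marks about 5% of such groups, and 14 were examined.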

How the results depend on the processing

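Beside the reported values, 18 other settings and 8 fits without 1 array each were run, and none of the 3 tested members changed direction in any of them. With 95 miRNAs called as reported, the count was 12 with the percentile over all probes, 52 with the software's totals, 19 with no filter on detection and 61 among miRNAs detected on all 8 arrays. Leaving out arrays gave 59 (without NcstnΔKC 3) to 94. With no filter, 0 members were called by limma (3 had an unadjusted p under 0.05): miR-511-3p stayed at 2.35 (adjusted p = 0.0618) and miR-142a-3p at 1.52 (adjusted p = 0.174), since 1881 miRNAs then share the adjustment and the variance estimate. Leaving out arrays gave 2 to 3 members called, with log2 differences of 2.22 to 2.72 for miR-511-3p, 1.33 to 1.75 for miR-142a-3p and 0.81 to 1.49 for miR-223-3p, whose call came without NcstnΔKC 1. Normexp background correction, run with an offset of 50 intensity units, gave miR-511-3p its smallest difference, 1.50. An added constant shrinks the log2 differences of dim signals more than those of bright ones. Before this correction, 1 miR-511-3p probe gave 35.1 to 64.4 on the normal arrays. Under normexp miR-142a-3p went from 1.52 to 1.14 and miR-223-3p from 1.15 to 1.08. The share of the offset in these drops was not tested. The normexp pair differences carry the same offset. Pair differences were recomputed in 5 of the settings, and none passed after adjustment, which 1 pair alone at the smallest p cannot do. The difference of miR-511-3p minus miR-223-3p ran from 0.42 (normexp, exact permutation p = 0.286) to 1.85, with the smallest possible p of 0.0286 in the other 4. Same-numbered samples had correlations of deviations of -0.44 to 0.20. These were not compared with differently numbered samples, so they cannot decide whether the numbers mark pairs, and the labels do not say so. With the replicate number as a block, 71 miRNAs and 2 members were called. Dim signal limits miR-142a-5p and miR-511-5p.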

Other observations

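The scanner software's total signal of miR-142a-5p stood in 1 ratio, 0.212, to its probe sum on 6 of the 8 arrays, but was 1.21 of the sum on normal 1 and 0.0821 on normal 2. The software totals of this miRNA are therefore not comparable between arrays in the way its probe sums are, and the values given for it here rest on the sums.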
